A study of Mus musculus with 48 samples.

Results

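The tumours compared here were the 16 with the most and the 16 with the least Cd79a RNA, out of 48 mouse tumours sequenced before treatment. They were chosen within 4 groups of 12 tumours each: in every group the 4 highest and the 4 lowest libraries by Cd79a CPM (read counts scaled to a column sum of 1e6) were taken, and the 16 in the middle were not compared. The tumours were thus chosen by measured Cd79a CPM, so Cd79a's own values are a description and Cd79a was not among the genes tested. The classes are called Cd79a-high and Cd79a-low rather than B-cell-rich and B-cell-poor, because the other B cell markers followed the split only in part.

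The groups came from 2 transplantable tumour lines, the mesothelioma line AB1 and the kidney cancer line Renca, grown under the skin of female Balb/c mice aged 8 to 9 weeks. Whole tumours were taken on day 8 (AB1) or day 10 (Renca), which the labels call day 0 of treatment with anti-CTLA4 plus anti-PDL-1, an antibody pair that blocks inhibitory signals to T cells. Each line had 12 tumours of responders and 12 of non-responders to that later treatment, and no mouse gave more than 1 tumour. All groups shared strain, sex, age and planned treatment, and each line is a single transplanted line, not a tumour that arose in its host. The renal genes Pax8 (37.6 to 67.6 CPM in 24 Renca libraries, at most 0.0894 in AB1) and Cdh16 (138 to 353 CPM in Renca, at most 0.134 in AB1) marked the Renca libraries. Of the mesothelial genes, Wt1 was at 0.18 to 7.36 CPM in AB1, while Upk3b and Calb2 were at or near 0 there (at most 0.0851 and 0.126 CPM).

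CD79A and CD79B are the paired signalling chains that every B cell receptor needs to report antigen binding to the inside of the cell, and both are made from early B cell development onward. MS4A1 (CD20) is a membrane protein of mature B cells and POU2AF1 is a transcriptional coactivator that B cells need for antibody responses. Plasma cells, the antibody-secreting end stage, give up most of these surface proteins and put much of their RNA into immunoglobulin chains. In tumours, B cells often lie in lymphoid aggregates beside T cells, and the chemokine CXCL13 draws them there. In RNA from whole tumours, fewer B cells and less RNA per B cell cannot be told apart.

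Cd79a was a low-count gene in all libraries. It stood at 0.871 to 2.42 CPM (median 1.40, 20 to 50 reads) in the 16 Cd79a-high tumours, at 0.335 to 0.966 CPM (median 0.584, 8 to 21 reads) in the 16 Cd79a-low tumours, and at 0.624 to 1.30 CPM in those between. Over all tumours of a group it averaged 0.774 ± 0.274 CPM (SD, n = 12) in AB1 non-responders, 0.807 ± 0.334 in AB1 responders, 1.05 ± 0.567 in Renca non-responders and 1.23 ± 0.403 in Renca responders.

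The edges of the classes were narrow. In AB1 responders the lowest Cd79a-high library had 1.0 CPM (Poisson interval 0.644 to 1.49) and the next library down 0.791 (0.476 to 1.24). In AB1 non-responders these edges were 0.871 and 0.817 CPM, in Renca responders 1.40 and 1.30, and in Renca non-responders 1.35 and 1.25. At the lower edge, the highest Cd79a-low library and the next library up had 0.606 and 0.624 CPM in the non-responders of AB1, 0.743 and 0.771 in those of Renca, 0.593 and 0.662 in the responders of AB1, and 0.966 and 1.04 in those of Renca. Since the classes were set within groups, the Cd79a-low Renca responders (0.730 to 0.966 CPM) overlapped the Cd79a-high AB1 non-responders (0.871 to 1.43 CPM).

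**Figure D1:**
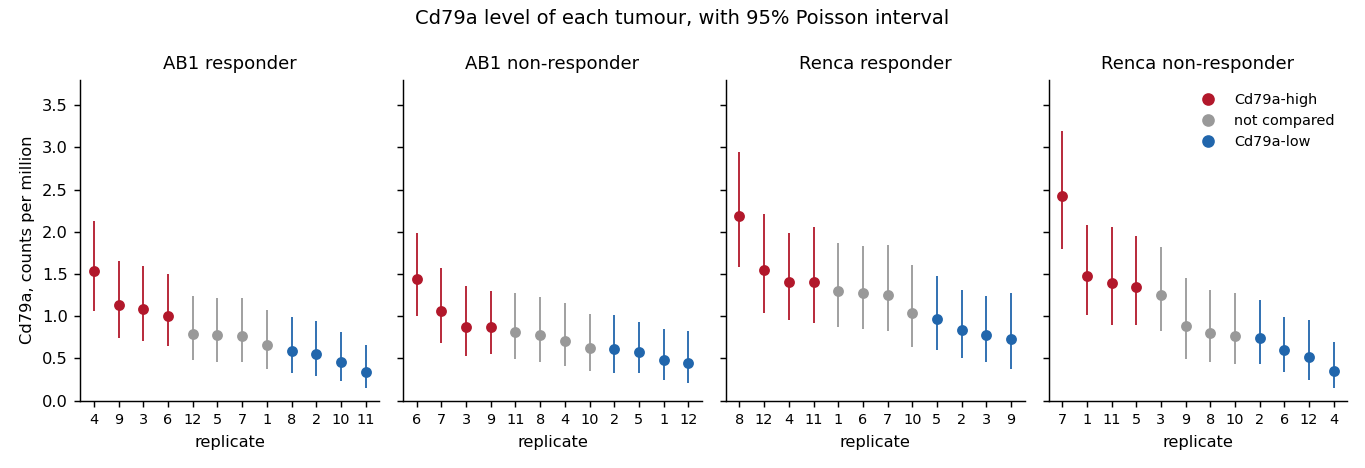
Cd79a CPM (vertical axis) in each of the 48 tumours, ordered within each group, with 95% Poisson intervals as bars and classes in colour. The intervals of neighbouring tumours overlap across both class edges, and the highest library, at 2.42 CPM, is a Renca non-responder.

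Library totals averaged 22.2 ± 2.53 M counts in Cd79a-high and 22.9 ± 2.47 M counts in Cd79a-low tumours (SD, n = 16 each), and the RNA absorbance ratio at 260/230 nm 2.0 ± 0.296 and 2.09 ± 0.198. Neither these nor the 260/280 ratio and the share of the 10 most abundant genes differed beyond the spread between libraries (permutation tests within groups, two-sided, p = 0.42 for each after adjustment over 4 values). The classes were unequal over flow cells in Renca, where one flow cell (A) held 5 Cd79a-high and 2 Cd79a-low libraries and the other (B) 3 and 6. In AB1 the counts were 5 and 4 on one flow cell and 3 and 4 on the other. A set of 3 Cd79a-high AB1 libraries stood apart by keratinocyte genes: the summed CPM of 13 such genes was 1210 in AB1 non-responder 3, 603 in AB1 non-responder 7 and 144 in AB1 responder 3, against at most 56.0 in the other 45 libraries. AB1 non-responder 3 also had the lowest 260/230 ratio (1.08), the lowest 260/280 ratio (1.9) and the highest share of counts in its 10 most abundant genes (8.16%) of all 48 libraries. Values without the 3 keratin-high libraries are given beside the list medians they moved by more than 1.5 times.

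Across all groups no gene passed the threshold. The edgeR quasi-likelihood test, with group as a term, called 0 of 16693 genes (0.0%) at an adjusted p under 0.05, and the smallest adjusted p was 0.208. At an unadjusted p under 0.05 it counted 1742 genes (10.4%), of which 983 (5.89%) were higher and 759 (4.55%) lower in Cd79a-high tumours. DESeq2 on the same libraries called 96 genes (0.575%), 80 higher and 16 lower. Its default filter gives no adjusted p to genes of low mean count. The DESeq2 shares here and below count such genes as not called, so the share among genes it could call can be higher. The counts of list members below are read against the shares of this paragraph.

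Pou2af1 and Ms4a1 were among the B cell identity genes of largest difference, while Cd79b, Cd22 and Ebf1 lay near 0. Of 28 B cell identity genes, 26 were in the table and 22 passed the filter on low counts. None passed the edgeR test, 19 of the 22 had a positive log2 fold change, 6 had an unadjusted p under 0.05 with a higher level, and none had one with a lower level. Their median log2 fold change was 0.14, beside -0.01 for all genes tested. The mean of the Cd79a-high tumours lay above that of the Cd79a-low tumours in 4 of 4 groups for 7 of the 22, which over all genes tested held for 1330 (7.97%). Pou2af1, Ms4a1, Cd180, Fcrl1 and Ralgps2 were among the 6 with an unadjusted p under 0.05.

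Pou2af1 stood at 0.290 to 1.73 CPM (median 0.842) against 0.108 to 0.973 (median 0.430). Its log2 fold change was 0.91 ± 0.18 (adjusted p = 0.208 by edgeR), the smallest adjusted p of any B cell gene. The 4 Cd79a-high Renca non-responders had 0.724, 0.775, 0.807 and 1.17 CPM and the 4 Cd79a-low ones 0.201, 0.308, 0.393 and 0.467, with no overlap. In the other 3 groups the classes overlapped. Renca responders had 0.927, 1.08, 1.19 and 1.73 CPM against 0.696, 0.748, 0.920 and 0.973. In AB1 non-responders the lowest Cd79a-high library had 0.290 CPM and the highest Cd79a-low library 0.323. Ms4a1 was at 0.175 to 0.918 CPM (median 0.625) against 0.124 to 0.739 (median 0.279), with a log2 fold change of 0.83 ± 0.24 (adjusted p = 0.251 by edgeR) and overlap in every group. In Renca non-responders 1 Cd79a-low library, at 0.523 CPM, lay among the Cd79a-high libraries at 0.501, 0.531, 0.583 and 0.872, and the other Cd79a-low libraries had 0.132, 0.175 and 0.208. Both genes had 3 to 34 reads a library, so their levels carry wide counting error.

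Cd180, a Toll-like receptor homologue of B cells that macrophages also make, had more reads behind it, 295 to 2804 a library. It was at 17.1 to 122 CPM (median 36.8) against 12.8 to 108 (median 25.9), and its log2 fold change was 0.54 ± 0.13 (adjusted p = 0.251 by edgeR and 0.0206 by DESeq2). It was the 1 B cell identity gene that DESeq2 called. Pou2af1, Ms4a1, Cd79b, Cd22, Fcrl1 and Ralgps2 had no adjusted p by DESeq2, so DESeq2 could not call them. Fcrl1, a B cell Fc receptor-like protein, had a log2 fold change of 0.51 ± 0.22. Ralgps2, a guanine exchange factor with high RNA in B cells, had 0.37 ± 0.17, which was 0.14 without the 3 keratin-high libraries.

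Cd79b, the partner chain of Cd79a, showed no difference between the classes beyond their spread. It stood at 0.876 to 5.30 CPM (median 2.63) in Cd79a-high and at 1.30 to 4.86 (median 2.39) in Cd79a-low tumours, a log2 fold change of 0.13 ± 0.19 (adjusted p = 0.83 by edgeR). The classes overlapped in all 4 groups. In AB1 non-responders the Cd79a-high libraries had 0.876, 1.52, 3.11 and 5.30 CPM and the Cd79a-low libraries 1.30, 2.94, 3.13 and 4.20. A split by Cd79b in place of Cd79a shared 6 of the 16 high (37.5%) and 7 of the 16 low tumours (43.8%), and 6 tumours high by Cd79a were low by Cd79b.

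Pax5 and Cd22 differed far more between groups than between classes. Pax5, the factor that commits cells to the B lineage, was at 0.124 to 0.795 CPM in the 24 AB1 libraries and at 18.4 to 32.7 CPM in the 24 Renca libraries, with no overlap between lines. Within Renca it gave -0.07 (log2) between the classes and within AB1 0.81. Cd22, an inhibitory receptor of B cells, was at 6.93 to 34.2 CPM in responders and at 1.63 to 18.3 in non-responders of AB1, and its log2 fold change between the classes was -0.06 ± 0.21 (adjusted p = 0.948 by edgeR), with -0.55 in AB1 and 0.44 in Renca. Whether cells other than B cells made this RNA was not tested. Ebf1 (-0.03 ± 0.07), Bach2 (-0.04 ± 0.10), Blnk (0.01 ± 0.08) and Bank1 (0.03 ± 0.17), all genes of B cell development or signalling, also lay near 0.

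**Figure D2:**
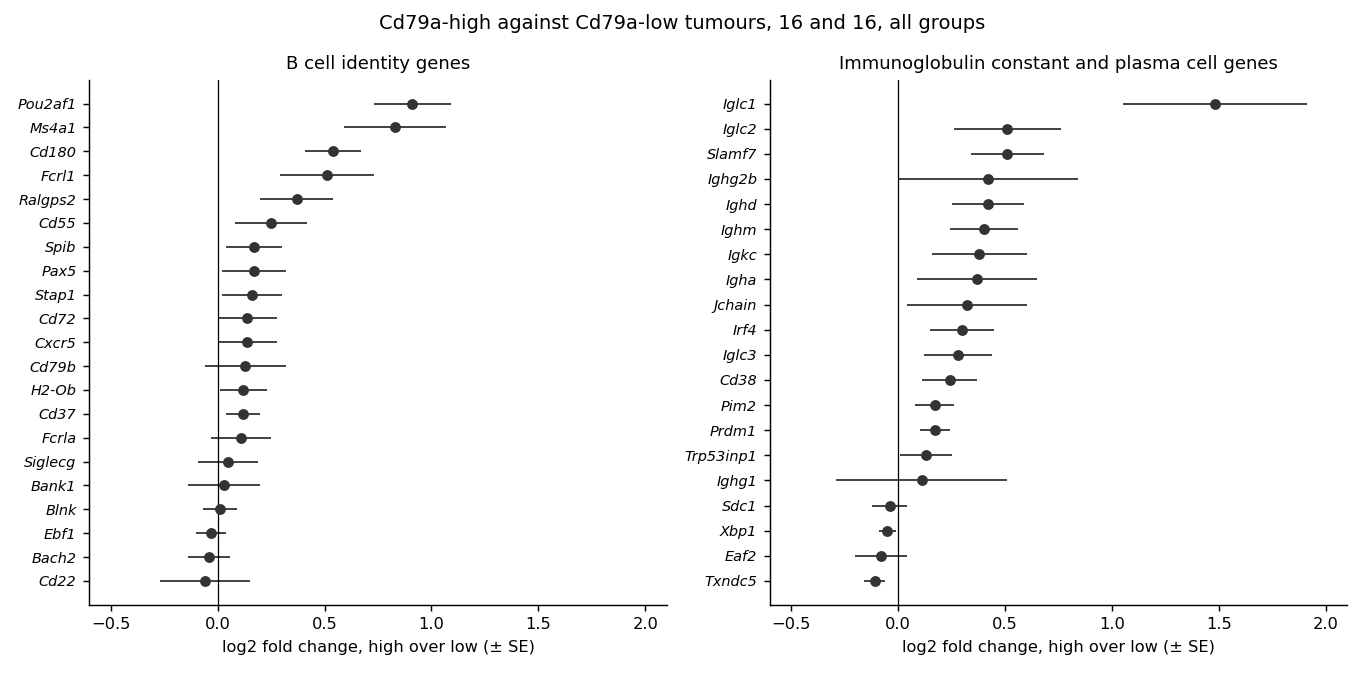
Log2 fold change of Cd79a-high over Cd79a-low tumours (horizontal axis, bars are standard errors) for the tested B cell identity genes that are reported (left) and for the immunoglobulin constant region and plasma cell genes (right). Pou2af1 and Ms4a1 lie farthest from 0 on the left and Iglc1 on the right, while Cd22, Bach2 and Ebf1 lie just below 0.

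Among the B cell identity genes too low to be tested, Fcmr, the Fc receptor for IgM, was at 0.0438 to 0.393 CPM (median 0.265) in Cd79a-high and 0 to 0.259 (median 0.0870) in Cd79a-low tumours. Fcer2a (CD23) was at 0.0837 to 0.448 (median 0.211) against 0 to 0.219 (median 0.114). For each of them 13 of 16 Cd79a-high libraries lay above the Cd79a-low median, with at most 10 reads in any library. Vpreb3 had medians of 0.0436 and 0.0826 CPM, and Cr2, a complement receptor of B cells, 0.321 and 0.290.

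All 9 tested immunoglobulin constant region genes had positive fold changes, with a median of 0.40. Of the 9, 3 had an unadjusted p under 0.05, none passed the edgeR test, and for 7 the Cd79a-high mean was above the Cd79a-low mean in 4 of 4 groups. Ighm, the heavy chain of IgM, stood at 20.6 to 138 CPM (median 96.8) against 33.3 to 108 (median 68.7), and 14 of 16 Cd79a-high libraries lay above the Cd79a-low median. Its log2 fold change was 0.40 ± 0.16 (adjusted p = 0.391 by edgeR). In AB1 responders the classes did not overlap, at 83.2, 92.9, 97.0 and 101 CPM against 49.0, 58.7, 65.5 and 71.9. In AB1 non-responders they overlapped widely, at 20.6, 34.3, 74.6 and 109 CPM against 33.3, 34.5, 52.5 and 90.0.

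Ighd, the heavy chain of IgD that naive B cells carry, gave 0.42 ± 0.17, and the kappa light chain Igkc 0.38 ± 0.22. The lambda light chain Iglc1 gave 1.48 ± 0.43 (adjusted p = 0.251 by edgeR), at 0 to 2.27 CPM (median 0.437) against 0 to 0.608 (median 0.158). Its highest values were in few libraries: AB1 responder 4 had 52 reads and Renca non-responder 7 had 45, where no Cd79a-low library had more than 11. Igha gave 0.37 ± 0.28 and Ighg2b 0.42 ± 0.42. Ighg2c, Ighg3 and Ighe were too low to be tested. The summed CPM of all constant region genes was 24.5 to 199 (median 134) in Cd79a-high and 36.2 to 166 (median 90.3) in Cd79a-low tumours. Of 346 variable region segments 4 could be tested, with a median of 0.05 (0.26 without the 3 keratin-high libraries).

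Genes of the plasma cell programme had a median of 0.17 (0.11 without the 3 keratin-high libraries), with 7 of 11 tested positive and none passing the edgeR test. Slamf7, a surface receptor of plasma cells that NK cells and macrophages also carry, gave 0.51 ± 0.17 and Prdm1, the plasma cell transcription factor, 0.17 ± 0.07. Jchain, which joins IgM and IgA into polymers, gave 0.32 ± 0.28 and Xbp1, which drives the secretory apparatus, -0.05 ± 0.04. Txndc5, a chaperone of the endoplasmic reticulum, gave -0.11 ± 0.05. The 8 tested germinal centre genes had a median of -0.04, and of -0.0 without those libraries.

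Receptor signalling genes downstream of the B cell receptor had a median of 0.14 over 19 tested, with 6 higher and none lower at an unadjusted p under 0.05. Ptpn6, the phosphatase SHP-1 that restrains antigen receptors in all blood cells, gave 0.33 ± 0.09 (adjusted p = 0.251 by edgeR, 0.0432 by DESeq2). The 13 tested genes of B cell survival and help had a median of 0.27, and of 0.15 without the 3 keratin-high libraries. Cxcl13 was at 4.18 to 73.4 CPM (median 15.5) against 4.38 to 40.1 (median 10.1), a log2 fold change of 0.51 ± 0.30 (adjusted p = 0.569 by edgeR). Without a single library it lay between 0.22 and 0.65. The 10 tested genes of lymph node stroma and high endothelium had a median of 0.25 (0.11 without those libraries), with Ccl19 at 0.55 ± 0.33 and Ccl21a at 0.56 ± 0.49, both chemokines that guide lymphocytes.

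**Figure D3:**
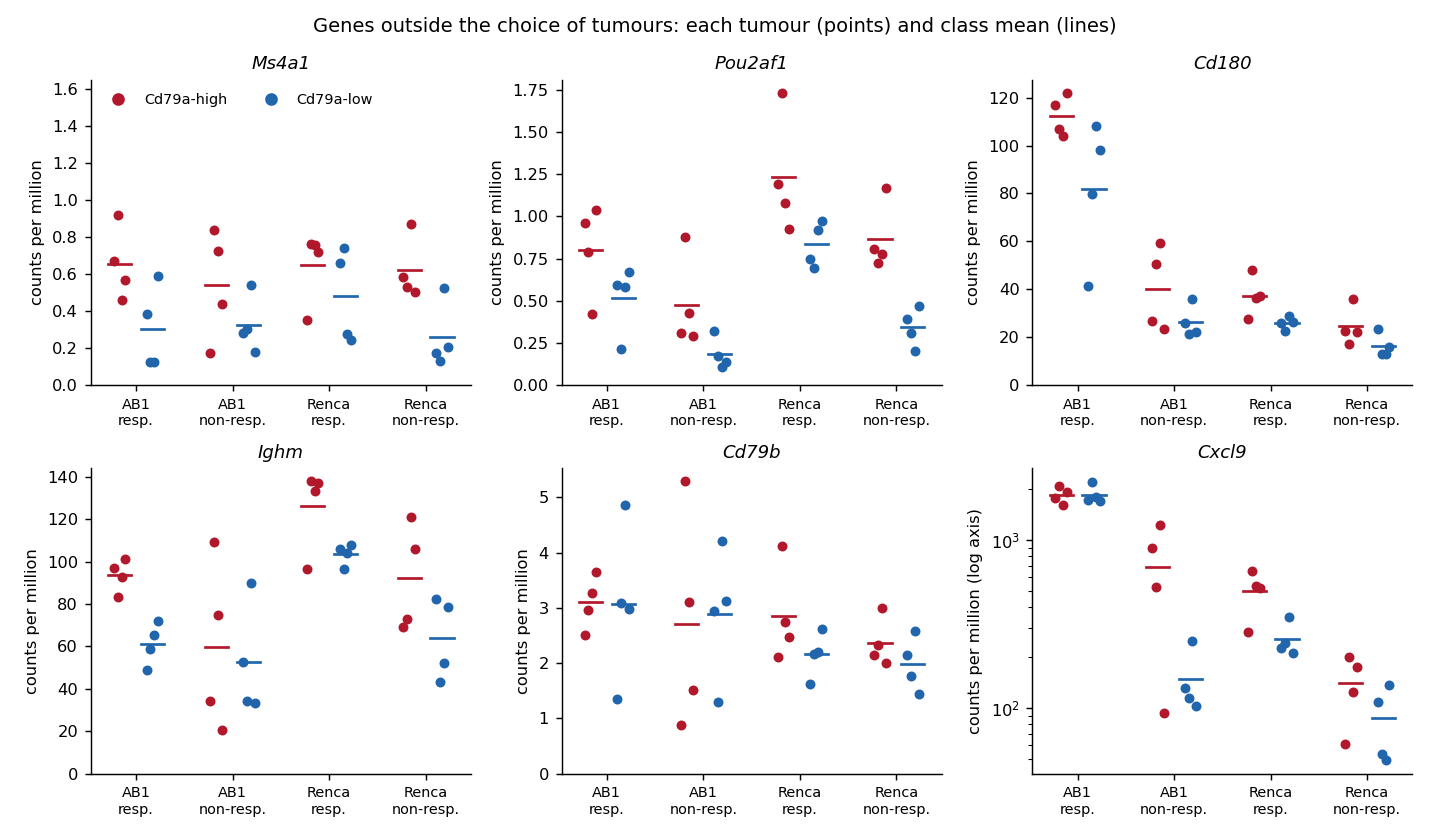
CPM (vertical axes, a log axis for Cxcl9) of 6 genes in the Cd79a-high and Cd79a-low tumours of each group, with class means as lines. Pou2af1 separates the classes in Renca non-responders and Ighm in AB1 responders, Cd79b in none, and Cxcl9 in none, although its AB1 non-responder means lie far apart.

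Cytotoxic, NK and T cell genes stood on the same side as Cd79a. All 14 tested cytotoxic and NK cell genes were positive, with a median of 0.49. At an unadjusted p under 0.05, 11 of 14 were higher, beside 5.89% of all genes tested. For 11 of 14 the Cd79a-high mean was above the Cd79a-low mean in 4 of 4 groups, beside 7.97% of all. Within AB1 0 of 14 were higher at an unadjusted p under 0.05 (median 0.41), beside 2.91% of all. Within Renca 13 of 14 were (median 0.62), beside 7.94% of all. Klrk1, the activating receptor NKG2D, was at 11.2 to 185 CPM (median 46.7) against 12.5 to 160 (median 27.2), a log2 fold change of 0.60 ± 0.19 (adjusted p = 0.264 by edgeR). Fasl, the death ligand of killer cells, gave 0.65 ± 0.20 and Ncr1, an NK cell receptor, 0.45 ± 0.19. No member of the list passed the edgeR test.

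The 18 tested T cell genes had a median of 0.36, and all were positive, with 5 at an unadjusted p under 0.05. In AB1 their median was 0.14 with 0 of 18 higher at that p, where 2.91% of all genes tested in AB1 were, and in Renca 0.60 with 16 of 18, where 7.94% of all were. No T cell gene passed in either line by edgeR, and 7 of 18 did in Renca by DESeq2. Over all, 199 of 15755 genes were called higher there, any genes that DESeq2 filtered out being counted as not called. Cd3e, a chain of the T cell receptor complex, gave 0.40 ± 0.21, Cd8a 0.34 ± 0.23 and Cd4 0.10 ± 0.16. Regulatory T cell genes had a median of 0.29 over 11 tested and follicular helper T cell genes 0.14 over 9 (0.07 without the 3 keratin-high libraries). With the level of Cd3d, Cd3e and Cd3g as a covariate, the log2 fold change of Pou2af1 was 0.77 and that of Ms4a1 0.79, while that of Ighm was 0.19 and that of Cd79b -0.01. The median of the B cell identity list was then 0.06 and that of the cytotoxic and NK cell list 0.18.

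The naive and central memory lymphocyte list, which T and B cells share, had a median of 0.34 over 12 tested, 7 of them at an unadjusted p under 0.05. Tcf7, a transcription factor of memory T cells, gave 0.30 ± 0.10. Dapl1 was the member of largest fold change, 2.57 ± 0.71 (adjusted p = 0.251 by edgeR), and all 16 Cd79a-high libraries lay above the Cd79a-low median of 0.214 CPM. In Renca non-responders it was at 0.338, 0.493, 0.557 and 0.581 CPM against 0.104, 0.132, 0.161 and 0.262, with no overlap. In AB1 non-responder 3 it reached 36.3 CPM, and without the 3 keratin-high libraries the log2 fold change was 1.11.

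Interferon-inducible genes stood higher in the Cd79a-high tumours in all tested members of both lists, though none passed the edgeR test. Interferons are secreted by infected or stimulated immune cells and switch on shared sets of defence genes, type I interferon mainly in antiviral defence and type II (interferon gamma, from T and NK cells) mainly in antigen display and macrophage activation. Of 21 tested type II response genes, 21 were positive, 21 had an unadjusted p under 0.05, and the median was 0.67. Of 21 tested type I response genes, 21 were positive, 20 had an unadjusted p under 0.05, and the median was 0.38. By DESeq2, 14 of the 21 type II and 5 of the 21 type I genes passed, beside 80 higher of 16693 genes over all. In each list 15 of 21 had a Cd79a-high mean above the Cd79a-low mean in 4 of 4 groups. The lists share regulation among their genes, so the members are not separate observations.

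Ifi27l2a, an interferon-induced mitochondrial protein named after its values were seen, had the smallest p of all genes tested. It was at 38.1 to 378 CPM (median 109) against 34.1 to 324 (median 68.1), a log2 fold change of 0.48 ± 0.10 (adjusted p = 0.208 by edgeR, 0.00266 by DESeq2). In Renca responders it was at 57.2, 60.4, 73.3 and 73.7 CPM against 35.1, 37.6, 38.3 and 48.5, with no overlap. In the other 3 groups the classes overlapped. Plac8, a myeloid and lymphoid protein from the monocyte list, gave 0.55 ± 0.12 (adjusted p = 0.251 by edgeR, 0.00601 by DESeq2), and Ly6c2, the monocyte surface antigen Ly6C, 0.84 ± 0.22 (0.251 and 0.0206). Ifit3, an antiviral RNA-response protein, gave 0.59 ± 0.15 and Gbp6, an interferon-induced GTPase, 0.89 ± 0.25.

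Cxcl9, the interferon gamma-induced chemokine that draws activated T cells, was at 61.2 to 2090 CPM (median 528) against 49.2 to 2200 (median 220). The log2 fold change was 0.95 ± 0.28 (adjusted p = 0.251 by edgeR, 0.0423 by DESeq2). In AB1 responders the classes did not separate, at 1610, 1770, 1920 and 2090 CPM against 1710, 1720, 1790 and 2200. In AB1 non-responders the values were 93.0, 524, 894 and 1230 CPM against 103, 114, 131 and 251, and the Cd79a-high value of 93.0 CPM was the lowest of all 8.

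Of the 3 keratin-high libraries, which are all Cd79a-high, AB1 non-responders 3 and 7 had 894 and 1230 CPM of Cxcl9. Without the 3 libraries the median of the type II list was 0.40 in place of 0.67, that of the type I list 0.29 in place of 0.38, and the log2 fold change of Cxcl9 was 0.67 in place of 0.95. Those of Pou2af1 and Ms4a1 were then 0.92 and 0.87. The 10 tested keratinocyte genes had a median of 1.95 with these libraries (4.75 in AB1, -0.51 in Renca) and -0.41 without them. The summed keratinocyte level was 7.77 to 1210 CPM (median 11.6) in Cd79a-high and 7.96 to 56.0 CPM (median 11.7) in Cd79a-low tumours. Fat genes had a median of 0.70 over 9 tested and 0.20 without the 3 libraries, and skeletal muscle genes 0.07 and -0.25. What part these tissues had in the other differences was not tested.

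The lists of fibroblasts and matrix, blood endothelium and proliferation lay near the median of all genes or below it. Those of lymphatic endothelium and of hypoxia and glycolysis lay above it with all libraries. Without the 3 keratin-high libraries, lists marked here by a second value moved by more than 1.5 times or changed sign. Fibroblast and matrix genes had a median of -0.13, with 2 of 16 positive, blood endothelium -0.08 with 3 of 13 positive, and proliferation -0.05 (0.05) with 2 of 18 positive. Emcn, a sialomucin of capillary and venous endothelium, gave -0.30 ± 0.09 (adjusted p = 0.263 by edgeR). Macrophage genes had a median of 0.04 (0.08), neutrophil genes -0.06 (-0.02), mature dendritic cell genes -0.05 (-0.11), and the platelet chemokine Pf4, also made by macrophages, gave -0.52 ± 0.18. The medians were 0.45 for monocyte genes, 0.22 for type 1 conventional dendritic cell genes, 0.23 for plasmacytoid dendritic cell genes, 0.18 for MHC class II presentation, 0.16 for mast cells and eosinophils, 0.39 (0.10) for lymphatic endothelium, 0.15 (-0.03) for hypoxia and glycolysis, 0.69 for red blood cells, 0.01 (-0.08) for peripheral nerve and -0.07 for renal tubule. The mammary and salivary gland list (2 genes tested, median -0.42) and the mesothelium list (1 gene, 0.40 and -0.06) were too small to read.

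**Figure D4:**
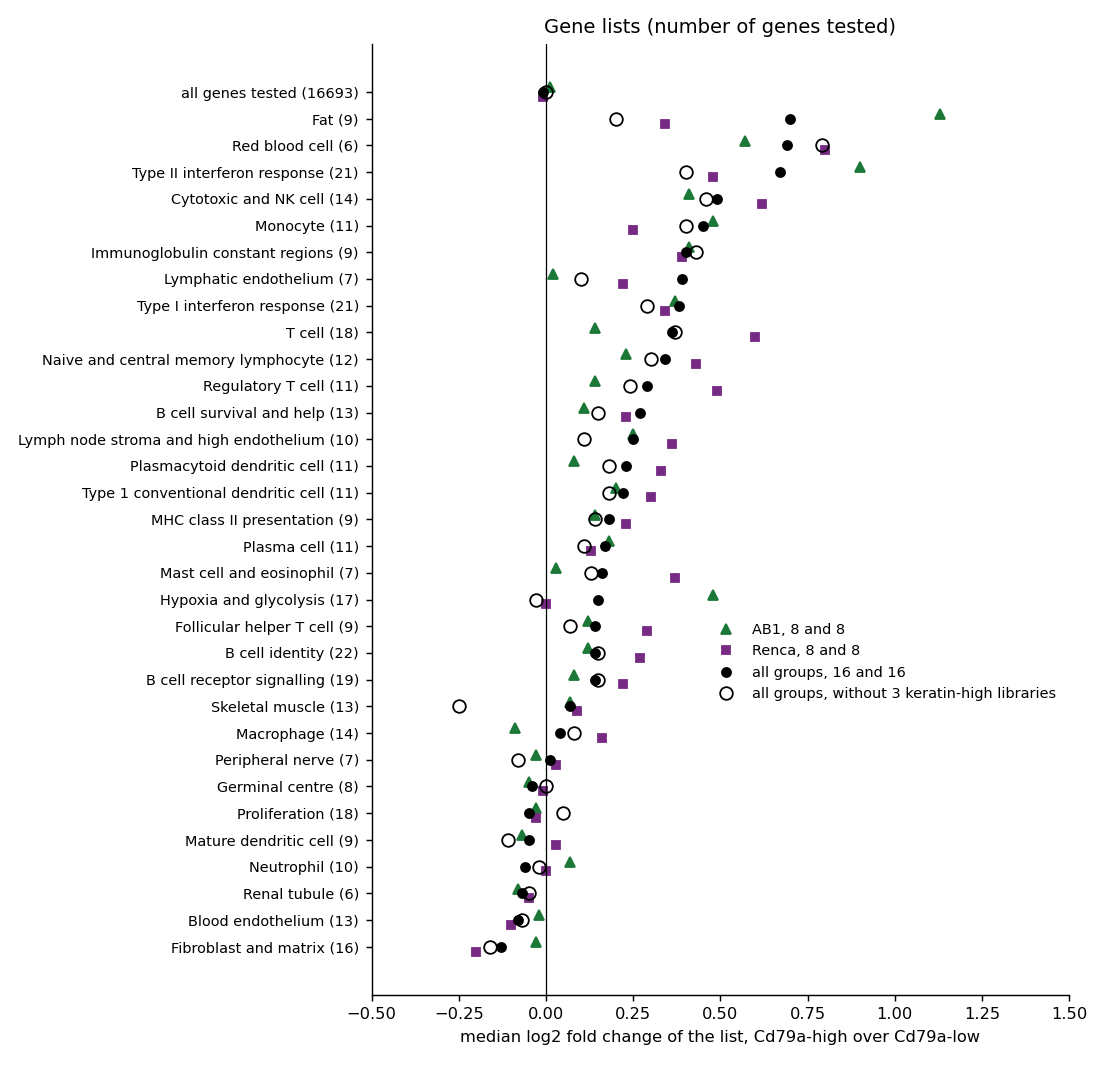
Median log2 fold change (horizontal axis) of each gene list between Cd79a-high and Cd79a-low tumours in all groups, in AB1, in Renca, and without the 3 keratin-high libraries. The keratinocyte list, which reached 4.75 in AB1, the mammary and mesothelium lists and the variable segments are not drawn. The type II interferon list moves from 0.67 to 0.40 without the 3 libraries, and the T cell list stands at 0.14 in AB1 and 0.60 in Renca.

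Within AB1, with 8 Cd79a-high and 8 Cd79a-low tumours, edgeR called 0 of 15763 genes (0.0%). At an unadjusted p under 0.05 it counted 616 (3.91%), 2.91% being higher, and DESeq2 called 2 (0.0127%). The B cell identity list had a median of 0.12 over 22 tested and 6 members higher at an unadjusted p under 0.05. Pou2af1 gave 0.96 and Ms4a1 0.93 there, and Cd79b -0.02, Cd22 -0.55 and Ebf1 -0.02. The type II interferon list had a median of 0.90 with 18 of 21 higher at that p. Without the 3 keratin-high libraries, all of them Cd79a-high AB1 tumours, AB1 had 389 genes at an unadjusted p under 0.05, 171 higher and 218 lower, in place of 458 and 158, so the excess of higher genes turned around. The type II list then had a median of 0.40 with 0 of 21 at that p, the type I list 0.19 in place of 0.37 with 0 in place of 9 of 21, and the cytotoxic and NK cell list 0.22 in place of 0.41. The B cell identity list then had a median of 0.09, with 5 of 22 at that p. This fit held 13 libraries in place of 16, so a difference of the same size is less likely to reach that p. The median over all genes was 0.0047 in it.

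Within Renca, edgeR called 2 of 15755 genes (0.0127%), both higher in Cd79a-high tumours. They were Phf11a, an interferon-inducible PHD finger gene, and Dpp4, the membrane peptidase CD26 that trims chemokines. At an unadjusted p under 0.05 it counted 2069 genes (13.1%), of which 7.94% of all tested were higher and 5.19% lower, and DESeq2 called 219 (1.39%), 199 higher and 20 lower. The B cell identity list had a median of 0.27, with 10 of 22 higher at an unadjusted p under 0.05, 0 passing by edgeR and 2 by DESeq2. Pou2af1 gave 0.89 ± 0.20 (adjusted p = 0.14 by edgeR). No keratin-high library was a Renca tumour. The type II interferon list had a median of 0.48 in Renca, with 20 of 21 higher at an unadjusted p under 0.05. The type I list had a median of 0.34, with 21 of 21 higher. No member of either list passed by edgeR, and 3 of the type II and 10 of the type I genes did by DESeq2.

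Phf11a stood at 24.0, 25.3, 27.4 and 33.2 CPM in the Cd79a-high Renca responders and at 16.9, 18.6, 19.9 and 21.5 in the Cd79a-low ones. In Renca non-responders it was at 18.8, 19.0, 19.4 and 19.5 CPM against 12.3, 13.1, 13.6 and 14.1. The classes did not overlap in either group. Its log2 fold change was 0.51 ± 0.07 (adjusted p = 0.0101 by edgeR). In AB1, where Phf11a was at 22.7 to 114 CPM and the classes overlapped in both groups, it was 0.44. Phf11b, its neighbour on chromosome 14 and chosen after its values were seen, gave 0.49 ± 0.08 in Renca (adjusted p = 0.0674). The 2 genes are near copies of each other, so reads may be shared between them and the split of their counts is uncertain.

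Dpp4 was at 22.5, 24.0, 26.4 and 30.5 CPM in the Cd79a-high Renca responders and at 14.4, 16.4, 17.7 and 19.8 in the Cd79a-low ones. In Renca non-responders it was at 16.3, 16.4, 21.4 and 22.2 CPM against 11.2, 12.4, 13.4 and 14.5, again with no overlap. Its log2 fold change was 0.58 ± 0.09 (adjusted p = 0.0474 by edgeR) in Renca and 0.19 in AB1.

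Both Renca calls ended when flow cell entered as a term, at adjusted p = 0.0614 for Phf11a and 0.0789 for Dpp4 by edgeR, with log2 fold changes of 0.50 and 0.48. Within flow cell A (5 Cd79a-high and 2 Cd79a-low libraries) the differences of log2(CPM + 0.5), with group as a term, were 0.52 for Phf11a and 0.55 for Dpp4, and within flow cell B (3 and 6) 0.45 and 0.40. With the replicate number as a block, which the 3 Renca pairs split between the classes inform, 0 genes passed and the log2 fold changes were 0.39 and 0.50 (adjusted p = 1.0 for both). Phf11a kept an adjusted p of 0.00397 to 0.0371 without any single Renca library. Dpp4 lost its call without Renca responder 2, 3, 5, 8, 9, 11 or 12 or non-responder 4, 6, 7 or 11, and over the 16 fits its adjusted p lay between 0.0282 and 0.161. The count of genes called was 5 without Renca non-responder 1 and 16 without Renca non-responder 12.

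**Figure D5:**
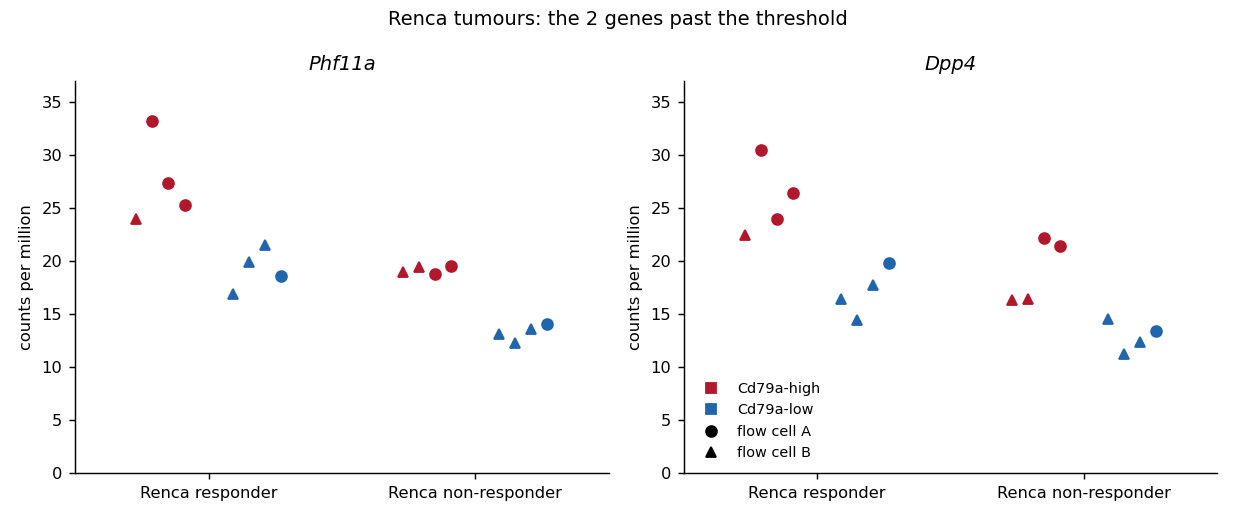
CPM of Phf11a and Dpp4 (vertical axes) in the Cd79a-high and Cd79a-low tumours of each Renca group, with the flow cell as the marker shape. In both groups each Cd79a-high tumour lies above each Cd79a-low tumour, the nearest for Phf11a in responders being 24.0 and 21.5 CPM, and both flow cells hold tumours of each class.

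The promoters of Phf11a, its copy Phf11b, Dpp4 and the response gene Ifit3 are shown because these genes are interferon-inducible or passed in Renca, and the motif that interferon-activated factors bind can be looked for in them. The 250 bases before each start come from RefSeq (GRCm38.p6), 5′ to 3′ on the gene's strand, at chr14:59297523-59297772 (minus strand) for Phf11a, chr14:59341331-59341580 (minus) for Phf11b, chr19:34583279-34583528 (plus) for Ifit3 and chr2:62412232-62412481 (minus) for Dpp4. Capitals mark matches, on either strand, to GAAA and GAAA with any 2 bases between them, the core of the interferon-stimulated response element. Phf11a, Phf11b and Dpp4 each hold 10 such bases and Ifit3 holds 20.
Phf11a: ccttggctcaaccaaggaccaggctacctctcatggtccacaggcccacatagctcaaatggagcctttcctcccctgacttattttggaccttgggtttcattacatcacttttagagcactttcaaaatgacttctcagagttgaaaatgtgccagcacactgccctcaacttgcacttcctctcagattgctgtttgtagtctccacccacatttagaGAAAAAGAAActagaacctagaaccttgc
Phf11b: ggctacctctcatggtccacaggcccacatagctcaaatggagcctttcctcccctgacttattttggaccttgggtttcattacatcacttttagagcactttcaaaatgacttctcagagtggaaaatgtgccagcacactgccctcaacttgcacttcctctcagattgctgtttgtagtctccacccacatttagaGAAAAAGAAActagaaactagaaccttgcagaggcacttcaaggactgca
Ifit3: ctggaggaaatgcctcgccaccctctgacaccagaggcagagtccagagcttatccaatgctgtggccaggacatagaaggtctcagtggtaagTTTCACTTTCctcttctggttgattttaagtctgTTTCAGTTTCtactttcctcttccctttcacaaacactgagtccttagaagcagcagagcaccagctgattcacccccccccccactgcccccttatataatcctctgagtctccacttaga
Dpp4: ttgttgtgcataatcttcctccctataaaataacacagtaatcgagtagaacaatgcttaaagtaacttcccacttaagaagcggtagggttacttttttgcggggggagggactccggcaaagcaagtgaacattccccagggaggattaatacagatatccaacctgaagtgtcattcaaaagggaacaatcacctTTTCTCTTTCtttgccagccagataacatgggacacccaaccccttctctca

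This motif was chosen with the results known. Over the promoters of RefSeq genes, windows of the same length, it was found in 1079 of 27025 (3.99%), in 7 of 15 type I response genes with a promoter in the table (46.7%), in 9 of 17 type II response genes (52.9%) and in 2 of 22 B cell identity genes (9.09%). The octamer ATGCAAAT, bound by the factors that Pou2af1 assists, was found on either strand in 532 of 27025 promoters (1.97%) and in 2 of the 22 B cell identity genes, Blnk and Vpreb3. The motif of early B cell factor, TCCC and GGGA with any 2 bases between them on either strand, was found in 287 of 27025 (1.06%) and in 1 of 22, Cd22. These are matches of letters, not measured binding.

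Whether the high-low difference itself differed was tested for line and for response. Between AB1 and Renca edgeR called 0 of 16862 genes (0.0%), with 767 (4.55%) at an unadjusted p under 0.05, 3.20% higher and 1.35% lower in AB1, and DESeq2 called 8 (0.0474%). Without the 3 keratin-high libraries 315 were higher and 428 lower in AB1, in place of 539 and 228. With a flow cell term edgeR called 37 genes, 36 of them higher in AB1, and without AB1 non-responder 6 it called 11. Among the 37, named after their values were seen, were the epithelial junction genes Cldn4 (6.98 ± 0.82 on the log2 scale, adjusted p = 2.79e-05) and Cdh3 (5.59 ± 0.67, adjusted p = 2.79e-05) and the keratin gene Krt17 (7.63 ± 1.36, adjusted p = 0.00862). None of the 37 or of the 11 was in a B cell, T cell, interferon or other list described here. The lists hold only a small part of the genes tested, so few calls would fall in them by chance. Keratin genes among the calls, such as Krt17, are outside the keratinocyte list. For Ms4a1, Pou2af1 and Cd79b, without the flow cell term, the adjusted p of the difference between lines was 1.0 by edgeR.

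Between responders and non-responders edgeR called 1 of 16862 genes (0.00593%), with 440 (2.61%) at an unadjusted p under 0.05, 0.878% higher and 1.73% lower in responders, and DESeq2 called 2 (0.0119%). The gene was Gm12435, a processed pseudogene on chromosome 4, whose reads may be shared with its parent gene, so that its counts are uncertain. Its log2 difference was 12.67 ± 2.1 (adjusted p = 0.025 by edgeR). Most libraries held under 1 CPM of it and a few held up to 174 CPM. In Renca responders the Cd79a-high libraries had 5.71, 7.92, 67.6 and 174 CPM and the Cd79a-low libraries 0.0435, 0.176, 0.184 and 0.243. In Renca non-responders the order was reversed, at 0.0484, 0.0966, 0.111 and 0.224 CPM against 0.262, 7.94, 24.9 and 103. In AB1 the high values were those of 1 library a group, 165 CPM in the Cd79a-high responder 6 and 43.4 CPM in the Cd79a-low non-responder 5. The call was lost without any 1 of 8 libraries, among them AB1 responder 6 (adjusted p = 1.0) and AB1 non-responder 5 (0.264), and with the replicate block (adjusted p = 1.0). No B cell gene passed this test.

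The genes whose levels followed Cd79a most closely over all 48 libraries were described by the Pearson correlation of log2 CPM after group means were removed. Over 13944 genes whose log2 CPM averaged 0 or more, the highest were Apod (0.574), Apbb1ip (0.565), Cd180 (0.564), Dpp4 (0.563), Dse (0.557), Lmo2 (0.544), Gypc (0.538), Cyfip2 (0.538), Nsmaf (0.537) and Hpse (0.532). Of the B cell genes below that level, Pou2af1 had 0.585 and Ms4a1 0.551, and Ighm, above it, had 0.501. Other B cell genes followed Cd79a less closely, among them Cd79b (0.243), Pax5 (0.185), Ebf1 (0.169), Cd22 (0.123) and Vpreb3 (0.031). The 48 libraries share flow cells and lanes, and the low counts of Cd79a limit every one of these values.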

How the data were processed

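Bulk RNA was sequenced from 48 whole tumours, 1 from each mouse. Per the submitters' processing notes, StringTie 1.3.0, HISAT2 2.0.4 and bcl2fastq 2.18.0.12 were used. These notes name human builds although the deposited table holds mouse Ensembl identifiers, so the mouse build and the counting step remain not given in the sources used here. The authors deposited raw read counts per gene for 39637 genes, as whole numbers, and all 48 columns were matched to samples by title. Gene symbols came from GENCODE M21, which held 39461 of the identifiers. Its coordinates are GRCm38 and need not be those of the authors' annotation.

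Library totals ran from 16.4 to 27.8 M counts. Levels are CPM, counts scaled to a column sum of 1e6, computed here from the deposited counts. Poisson intervals at the 95% level cover counting error only.

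The choice of tumours and the gene lists were made with earlier results of these data known. Cd79a was left out of the genes tested in every fit and entered 1 alternative as a continuous term. The Cd79a-high and Cd79a-low tumours were compared with edgeR 4.0.16 (R 4.3.3; TMM scaling, filterByExpr, quasi-likelihood F test, Benjamini-Hochberg adjustment over all genes tested, threshold 0.05), with group as a term. The same was done within each tumour line and for the difference between lines and between responders and non-responders. DESeq2 1.42.0, no filter, a flow cell term, a replicate block, other class sizes, a split by Cd79b, covariates and each library left out were the alternatives. The fit was tested on simulated counts. Library totals and RNA purity were compared by permutation within groups with 100000 resamples.

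Genes named in the text are members of the B cell, immunoglobulin, plasma cell and lymph node stroma lists, a panel of cell type markers, the 2 members of smallest p in each other list, the extremes of each difference test, the genes most like Cd79a, and genes past the threshold. Any other is stated as chosen after its values were seen. All 35 lists are shown by count and median; some of their members are not reported here. Same-numbered libraries shared a sequencing lane in 12 of 12 pairs of each line, but the correlation of their deviations from the group means ran from -0.0826 to 0.494 in AB1 and from -0.118 to 0.249 in Renca, so not every pair deviated together. Each mouse gave 1 sequenced tumour, so p-values cover the spread between mice.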

Additional observations from a re-analysis of the deposited data

Results flagged for a closer look

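A check of some of the B cell genes and Cxcl9 flagged 5 places where a single library stood apart within a class of 4. Genes outside the flagged places had such libraries too. Iglc1 reached 2.27 CPM in 1 Cd79a-high AB1 responder, where the median of that class was 0.342 CPM. Chance alone gives about 1 in 20 such groups. Several genes were looked at in every group and class, so the 5 places were not shown to be more than chance gives. Cd79a, which chose the tumours, is among them. The Cd79a level of the highest Cd79a-high Renca non-responder was 2.42 CPM, where the others had 1.35 to 1.48 CPM. The Cd79a-low AB1 non-responder 5 had 1.22 CPM of Ighd, where the other Cd79a-low libraries of that group had at most 0.402 CPM. In Renca responders the lowest Cd79a-high library had 0.351 CPM of Ms4a1 and the lowest for Ighm had 96.7 CPM, next to Cd79a-low libraries at 96.5 to 108 CPM. In AB1 responders the highest Cxcl9 level of the Cd79a-low class, 2200 CPM, stood apart from the others at 1710 to 1790 CPM. The high-low difference of the pseudogene Gm12435 differed between responders and non-responders, by 12.67 on the log2 scale (edgeR interaction test, adjusted p = 0.025), and the call was lost without AB1 responder 6 (10.42, adjusted p = 1.0).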

How the results depend on the processing

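In all groups together the count of genes called was 0 under no filter, a flow cell term, other class sizes, covariates and without any 1 library (0 to 0). It was 96 by DESeq2, 1 (Krt25, lower) with the split by Cd79b, and 2 (Iglc1 and Gm8019, both higher) with Cd79a as a continuous term. In AB1 DESeq2 called 2. In Renca the 2 calls were 219 by DESeq2 and 0 with a flow cell term, the 3 highest and 3 lowest, the 6 highest and 6 lowest, or the split by Cd79b, and 1 to 16 without any 1 library. The difference between lines gave 8 by DESeq2, 37 with a flow cell term, and 0 to 11 without any 1 library (11 without AB1 non-responder 6, 4 without AB1 non-responder 9). The difference by response gave 2 by DESeq2, 0 with either other class size or the split by Cd79b, and 0 to 2 without any 1 library.

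With the replicate block, 0 genes passed in Renca and 0 for the difference by response. The block could not be fitted for AB1 or for the difference between lines. Same-numbered libraries shared a lane. No AB1 pair was split between the classes, so over all groups the block rested on split Renca pairs alone. Under the block over all groups the log2 fold change was 0.52 for Cd22, -0.09 for Pax5 and -9.73 for Krt5. Each was opposite in sign to the fit of all groups without a block. For Cd22 and Pax5 the sign was that of Renca without a block. Apart from the libraries or pairs that each fit rested on, the cause of the changes in this section was not tested.

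Other changes of direction were few. Cd22 was 0.11 with 3 and 0.04 with 6 libraries a class, 0.10 without the keratin-high libraries, 0.20 with the continuous term, and -0.16 to 0.02 without any 1 library. With T cell level as a covariate Cd79b was -0.01 and Cd4 -0.16. The split by Cd79b gave -0.26 for Pax5, 0.48 for Cd22, -0.15 for Ralgps2, -1.27 for Dapl1, -3.20 for Krt5 and -2.35 for Gm12435. Krt5 was -1.87 without the keratin-high libraries. Cd79a itself had 8 to 50 reads in the compared libraries, and that depth limits which tumours fall in which class.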
